A study of Mus musculus with 8 samples.

Results

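The collagen genes were the 44 symbols, of 51822 in the deposited tables, whose name has the form Col, a number, the letter a and a number. They were divided by the structure that their proteins build into 11 fibrillar, 9 network, 9 FACIT (fibril-associated collagens with interrupted helices), 6 beaded-filament (type VI), 4 transmembrane and 5 other chains. A gene entered the tests when at least 2 of the 8 libraries showed an RPKM (reads scaled by gene length and library size) of 1 or more. This held for 33 of the 44 members and 12514 genes in all. These were all 11 fibrillar and all 5 other members, 6 network, 7 FACIT, 3 beaded and 1 transmembrane member.

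Collagens are secreted or membrane-bound proteins in which chains with a glycine at regular intervals wind around each other into a stiff helical rod. Type I collagen, built from the products of Col1a1 and Col1a2, is the bulk of the organic matrix of bone, and the osteoblast secretes it before mineral is laid down. Fibrillar types II and XI and the FACIT type IX are known from cartilage, type IV from basement membranes, and types XII and XIV from the surface of type I fibrils.

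The study asked how LAMZ (locamidazole), an aminoindazole derivative selected for its action on muscle and bone cells, changes gene expression in mouse osteoblast progenitors. Cells of all groups were kept in osteogenic medium (α-MEM with serum, ascorbic acid, dexamethasone and β-glycerophosphate). LAMZ at 1 μmol/L or its vehicle DMSO (control) was added, total RNA was taken after 7 or 14 days, and each of the 4 groups so formed had 2 libraries. The sample labels name the cells MC3T3-E1, a clonal osteoblastic line from mouse calvaria, whereas the series title and the study's methods name calvarial cells. No source used here says whether the 2 libraries of a group came from separate cultures, so the p-values measure the spread between these libraries, which may be technical.

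The libraries held between 3463538 and 5832101 mapped reads, as recovered from the steps of the RPKM values, and the values of all members could be turned back into reads. Summed RPKM of 10 osteoblast markers other than collagens was 222 to 1072 in the control libraries and 719 to 2153 with LAMZ, and 8 of the 10 were called higher at day 7 and 6 at day 14. Of all tested genes, 4.35% were called higher at day 7 and 6.96% at day 14, and 8.49% and 16.0% were called lower. Markers of macrophages differed in the other direction from the osteoblast markers. Of 15 such genes 14 were tested and 13 were called lower with LAMZ at day 7 and 13 at day 14, and their summed RPKM was 481 and 631 in day 7 control against 9.48 and 7.62 with LAMZ, and 1203 and 1222 in day 14 control against 7.53 and 8.08 with LAMZ. The complement genes C1qa, C1qb and C1qc, which define macrophages, were at 0 in all 4 LAMZ libraries. Their level in the control libraries goes against the label of a single osteoblastic line, and their part in the collagen differences described here was not tested. In bulk RNA, fewer cells of a type and less RNA per cell cannot be told apart.

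Collagen genes took up a large share of each library, and the share was highest with LAMZ at day 14. Their reads made up 8.96% and 9.74% at day 7 without LAMZ and 10.7% and 10.5% with it, and 11.0% and 10.6% at day 14 without LAMZ and 13.4% and 14.8% with it. At each day the LAMZ and control libraries did not overlap. The 95% binomial (Wilson) interval of the lowest share was 8.93% to 8.99%, which covers counting error only. As a share of the summed RPKM of all genes, the collagens held 2.96% and 3.42% at day 7 without LAMZ and 3.02% and 2.93% with it, and 4.43% and 4.41% at day 14 without LAMZ and 4.29% and 4.74% with it. On that scale the LAMZ and control libraries overlapped at both days. The non-coding RNA gene Rn7s1, itself at 18.1% to 33.7% of the summed RPKM, sets much of that denominator. The shares were not tested.

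Of the summed RPKM of all collagens, Col1a1 held 40.7% and 47.1% at day 7 without LAMZ and 48.4% and 47.3% with it, and 50.4% and 49.2% at day 14 without LAMZ and 55.3% and 55.9% with it. Col1a2 held 24.3% and 25.4% at day 7 without LAMZ and 20.9% and 20.3% with it. At day 14 it held 24.7% and 24.7% without LAMZ and 24.4% and 24.8% with it. The level of such shares depends on the gene length used, which for Col1a2 was 12137 bases against 5348 in its longest principal transcript. Network collagens held 9.5% and 6.71% at day 7 without LAMZ and 5.85% and 6.92% with it, and 7.0% and 6.99% at day 14 without LAMZ and 3.1% and 2.83% with it. Their part was smallest in the 2 day 14 LAMZ libraries, where the fibrillar part was largest, at 91.1% and 91.6%. Without Col1a1 and Col1a2, the summed RPKM of the other 42 members was 3752 and 3179.5 at day 7 without LAMZ and 3963 and 4145 with it. At day 14 it was 3284 and 3311 without LAMZ and 3280.3 and 3422 with it. The day 14 groups overlapped in this sum.

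**Figure D1:**
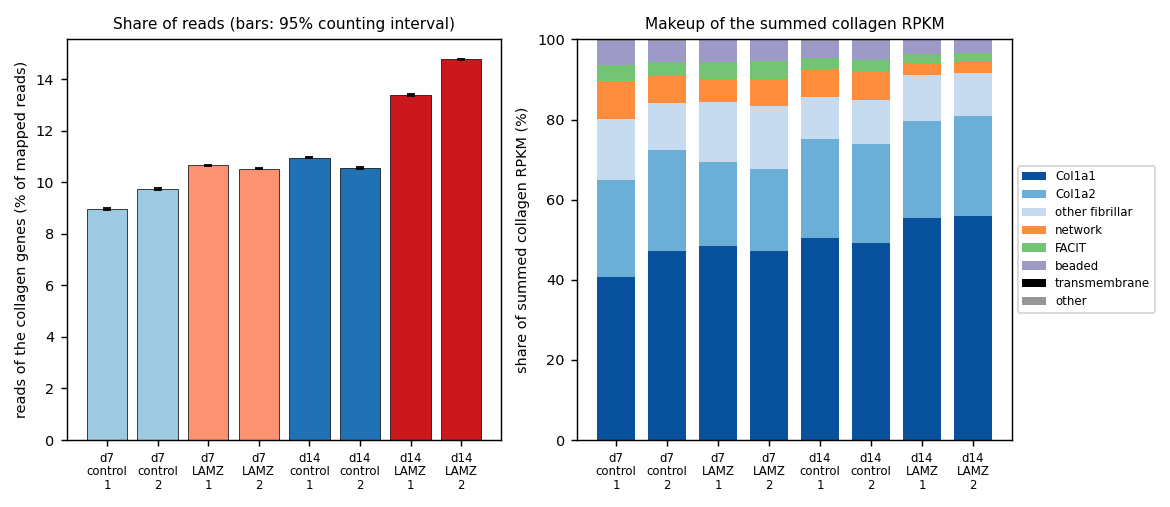
Left, reads of the 44 collagen genes as a percent of mapped reads in each library, with 95% counting intervals. Right, makeup of the summed collagen RPKM in percent, with Col1a1 and Col1a2 shown apart from the other fibrillar members. The 2 day 14 LAMZ libraries have the highest share of reads (13.4% and 14.8%) and the thinnest network band (3.1% and 2.83%).

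LAMZ was compared with control at each day by limma on log2(RPKM + 1), fitted to all 8 libraries, and a gene was called when its p, adjusted by Benjamini-Hochberg over the 12514 genes tested, was under 0.05. At day 7, 9 of the 33 tested members rose, where 4.35% of all tested genes did, and 10 fell, where 8.49% of all genes did. At day 14, 12 members rose, against 6.96% of all genes, and 11 fell, against 16.0% of all genes. The median log2 fold change of the members was 0.12 at day 7 and 0.06 at day 14, and that of all tested genes was -0.08 and -0.15. Thus members moved both ways, and 7 rose and 9 fell at both days. The share of all tested genes called at both days was not determined, so these counts have no background beside them. The 7 that rose at both days were Col2a1, Col5a2, Col11a1, Col11a2, Col9a1, Col6a3 and Col13a1, and the 9 that fell were Col5a3, Col4a1, Col4a2, Col4a5, Col14a1, Col7a1, Col18a1, Col26a1 and Col28a1. The 2 comparisons share no library, but both take the spread of each gene from the same fit to all 8 libraries. Their calls are therefore not independent.

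The balance of rises and falls depended on how the libraries were scaled to each other. With libraries rescaled to the same summed RPKM, the median over all genes moved to -0.31 at day 7 and -0.43 at day 14. Of the 33 members 5 rose and 11 fell at day 7, where 2.43% and 25.8% of all genes did, and 8 rose and 15 fell at day 14, where 3.73% and 42.7% did. The 15 falls are 45.5% of the members, a share near that of all genes. With libraries centred on the median gene, the medians over all genes were 0.03 and 0.04. The counts were then 9 and 10 at day 7 (6.85% and 5.95% of all genes) and 14 and 9 at day 14 (12.8% and 9.98%). Under quantile normalization, with medians of 0.01 and 0.03, they were 5 and 11 at day 7 (5.43% and 6.46%) and 9 and 10 at day 14 (10.2% and 11.1%). Col2a1, Col11a1, Col24a1, Col9a1 and Col13a1 were called higher at day 7, and all 10 of the fallen members lower, under every scaling tried. Most calls of rises at day 7, though not that of Col9a1, were lost when either day 7 LAMZ library was left out. Some were lost without day 7 control replicate 1. Some rises at day 14 were lost without day 14 control replicate 2 or without day 14 LAMZ replicate 2. In each of these fits fewer of all tested genes were called higher as well. Each leaves 1 library in a group, so its counts are not given. Called in every alternative in which they were tested were Col9a1 among the rises and Col5a3, Col4a1, Col14a1, Col15a1, Col18a1 and Col28a1 among the falls at day 7, and Col2a1, Col5a1, Col11a1, Col9a1 and Col13a1 among the rises and Col5a3, Col4a1, Col4a2, Col4a5, Col8a1, Col14a1, Col18a1 and Col28a1 among the falls at day 14.

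**Figure D2:**
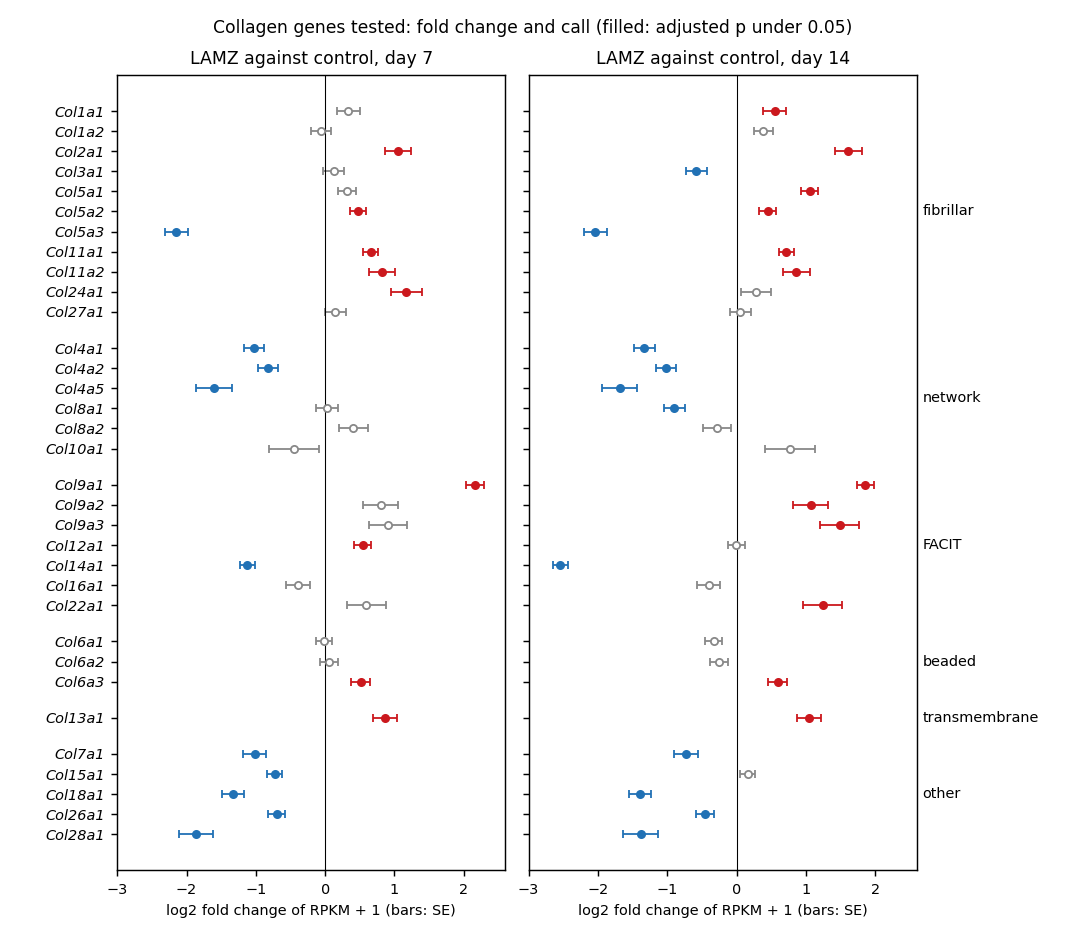
Log2 fold change of RPKM + 1 (x axis, bars are SE) of the 33 tested members, LAMZ against control, at day 7 (left) and day 14 (right), grouped by structural type. Filled red and blue points passed an adjusted p of 0.05 upward and downward. Network and other members lie mostly left of 0, with Col14a1 farthest left at day 14 (-2.54) and Col9a1 farthest right at day 7 (2.16).

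The fibrillar members, which form the banded fibrils of bone, skin and cartilage, mostly lay higher with LAMZ. Of 11 tested, 5 rose and 1 fell at day 7, and 6 rose and 2 fell at day 14. For this type and the types that follow, the shares of all tested genes were 4.35% higher and 8.49% lower at day 7. At day 14 they were 6.96% and 16.0%. The fibrillar falls, 9.09% and 18.2% of the type, were near these shares. Col1a1 (α1 chain of type I, chr11:94936224-94953042, GRCm38 as for all positions given here) was at 4354 and 5451 RPKM in day 7 control and 6252 and 6049.9 with LAMZ. At day 14 Col1a1 was at 6658 and 6220.4 in control and 8936 and 9964 with LAMZ. The LAMZ values exceeded the control values at each day. The log2 fold change was 0.34 ± 0.16 (SE, adjusted p = 0.23) at day 7 and 0.55 ± 0.16 (SE, adjusted p = 0.046) at day 14. The call at day 14 was lost in most alternatives, among them with libraries rescaled to the same sum (0.19, adjusted p = 0.418) and without any 1 of the 4 day 14 libraries (adjusted p between 0.114 and 0.245) or of the 2 day 7 LAMZ libraries (0.0787 and 0.0783), and under quantile normalization the value turned to -0.22 (adjusted p = 0.641). Col1a2 (α2 chain of type I, chr6:4504814-4541544) was at 2596 and 2939 RPKM in day 7 control and 2696 and 2599 with LAMZ. At day 14 Col1a2 was at 3268 and 3118 in control and 3941 and 4423 with LAMZ. The groups overlapped at day 7 and did not overlap at day 14, and neither difference passed the test, with log2 fold changes of -0.06 ± 0.14 (SE, adjusted p = 0.824) at day 7 and 0.39 ± 0.14 (SE, adjusted p = 0.086) at day 14. The scaling and the test decided its calls, since Col1a2 was called higher at day 14 with libraries centred on the median gene (0.58, adjusted p = 0.0335) and by limma voom on the recovered reads (0.39, adjusted p = 0.00598), and lower at day 7 under quantile normalization (-0.83, adjusted p = 0.0111).

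Col2a1, the single chain of the type II fibrils of cartilage (chr15:97975602-98004695), was at 211 and 139 RPKM in day 7 control and 344 and 367 with LAMZ. At day 14 Col2a1 was at 72.8 and 82.9 in control and 242 and 238 with LAMZ. It was 2.03-fold higher with LAMZ at day 7 and 3.08-fold higher at day 14 by group means, with log2 fold changes of 1.05 ± 0.19 (SE, adjusted p = 0.0112) at day 7 and 1.61 ± 0.19 (SE, adjusted p = 0.000928) at day 14. The chains of type XI, which co-assembles with type II in cartilage, rose as well. Col11a1 (chr3:114030540-114220718) was at 105 and 97.7 RPKM in day 7 control and 157 and 164 with LAMZ. At day 14 Col11a1 was at 86.3 and 82.7 in control and 137 and 142 with LAMZ. Col11a2 (chr17:34039437-34066685) was at 41.1 and 55.1 RPKM in day 7 control and 91.0 and 79.5 with LAMZ. At day 14 Col11a2 was at 65.0 and 56.8 in control and 97.0 and 128 with LAMZ. For neither gene did the groups overlap at either day. The log2 fold change of Col11a1 was 0.66 ± 0.11 (SE, adjusted p = 0.00746) at day 7 and 0.71 ± 0.11 (SE, adjusted p = 0.00292) at day 14, and that of Col11a2 was 0.82 ± 0.19 (SE, adjusted p = 0.0276) at day 7 and 0.86 ± 0.19 (SE, adjusted p = 0.0141) at day 14. The chondrocyte list without collagens moved with them, with 7 of its 11 tested genes called higher at day 7 and 8 higher and 1 lower, the cartilage transcription factor gene Sox9, at day 14.

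The type V chains, which start and limit the growth of type I fibrils, did not move together. Col5a1 (chr2:27886425-28039514) was at 343 and 294 RPKM in day 7 control and 400.4 and 390.0 with LAMZ. At day 14 Col5a1 was at 318 and 303 in control and 626 and 665 with LAMZ. It was higher in both LAMZ libraries at each day, and passed the test at day 14, with log2 fold changes of 0.31 ± 0.12 (SE, adjusted p = 0.146) at day 7 and 1.06 ± 0.12 (SE, adjusted p = 0.000951) at day 14. Col5a2 (chr1:45374321-45503282) was at 272 and 239.7 RPKM in day 7 control and 354 and 354 with LAMZ. At day 14 Col5a2 was at 234 and 252 in control and 325 and 338 with LAMZ. Its log2 fold changes were 0.47 ± 0.12 (SE, adjusted p = 0.0388) at day 7 and 0.45 ± 0.12 (SE, adjusted p = 0.0296) at day 14. Col5a3, the third type V chain (chr9:20770050-20815067), was at 14.1 and 10.2 RPKM in day 7 control and 1.79 and 2.09 with LAMZ. At day 14 Col5a3 was at 14.3 and 14.6 in control and 2.47 and 3.07 with LAMZ. All 4 LAMZ values lay below all 4 control values. Its mean was 6.27-fold lower at day 7 and 5.21-fold lower at day 14, with log2 fold changes of -2.15 ± 0.17 (SE, adjusted p = 0.000271) at day 7 and -2.04 ± 0.17 (SE, adjusted p = 0.000164) at day 14, on between 52 and 523 reads per library.

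Promoter windows in RefSeq (GRCm38.p6, 250 bases before to 50 after the transcript start) were found for 35 of the 44 members and were searched for the letters TGTGGT, bound by the osteoblast factor RUNX2, on both strands, for CCAAT on both strands and for TATAAA on the gene's strand. TGTGGT occurred in windows of 3 of the 35 genes and in 16.7% of 32544 windows of all genes, CCAAT in 13 of the 35 and in 37.4% of all windows, and TATAAA in 5 of the 35 and in 8.28% of all windows. Of the fibrillar members that fell, Col5a3 had the largest change, and the 250 bases before its start (chr9:20815068-20815317, minus strand) are shown with CCAAT in capitals, whose first base lies at position -122 from the start.
Col5a3: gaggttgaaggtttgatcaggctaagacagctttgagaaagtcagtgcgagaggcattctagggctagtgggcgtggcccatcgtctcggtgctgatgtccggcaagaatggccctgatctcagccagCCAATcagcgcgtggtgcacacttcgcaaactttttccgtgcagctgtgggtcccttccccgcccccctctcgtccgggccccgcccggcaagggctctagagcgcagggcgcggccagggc

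Col3a1, the chain of the type III fibrils of soft tissue and of early bone repair (chr1:45311538-45349706), was at 629 and 485 RPKM in day 7 control and 575 and 629 with LAMZ. At day 14 Col3a1 was at 583 and 599 in control and 390.4 and 400.1 with LAMZ. The groups overlapped at day 7, and at day 14 both LAMZ values were below both control values, with log2 fold changes of 0.12 ± 0.15 (SE, adjusted p = 0.64) at day 7 and -0.58 ± 0.15 (SE, adjusted p = 0.0263) at day 14. Col24a1, a minor fibrillar chain known from bone (chr3:145292472-145552011), was at 5.36 and 9.32 RPKM in day 7 control and 18.4 and 16.2 with LAMZ. At day 14 Col24a1 was at 8.99 and 10.7 in control and 11.5 and 12.8 with LAMZ. It rose at day 7 with 1.17 ± 0.22 (SE, adjusted p = 0.0126) and was at 0.28 ± 0.22 (SE, adjusted p = 0.392) at day 14, where the values lay above control without passing the test. Col27a1, known from cartilage, stayed between 3.99 and 5.46 RPKM in the 8 libraries and passed neither test. Among the fibrillar calls, the adjusted p over all alternatives reached 0.326 for Col5a2 at day 7 and 0.569 at day 14, 0.166 for Col11a2 at day 7 and 0.0947 at day 14, 0.122 for Col3a1 at day 14, 0.097 for Col24a1 at day 7, 0.0757 for Col2a1 at day 7 and 0.0613 for Col11a1 at day 7.

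**Figure D3:**
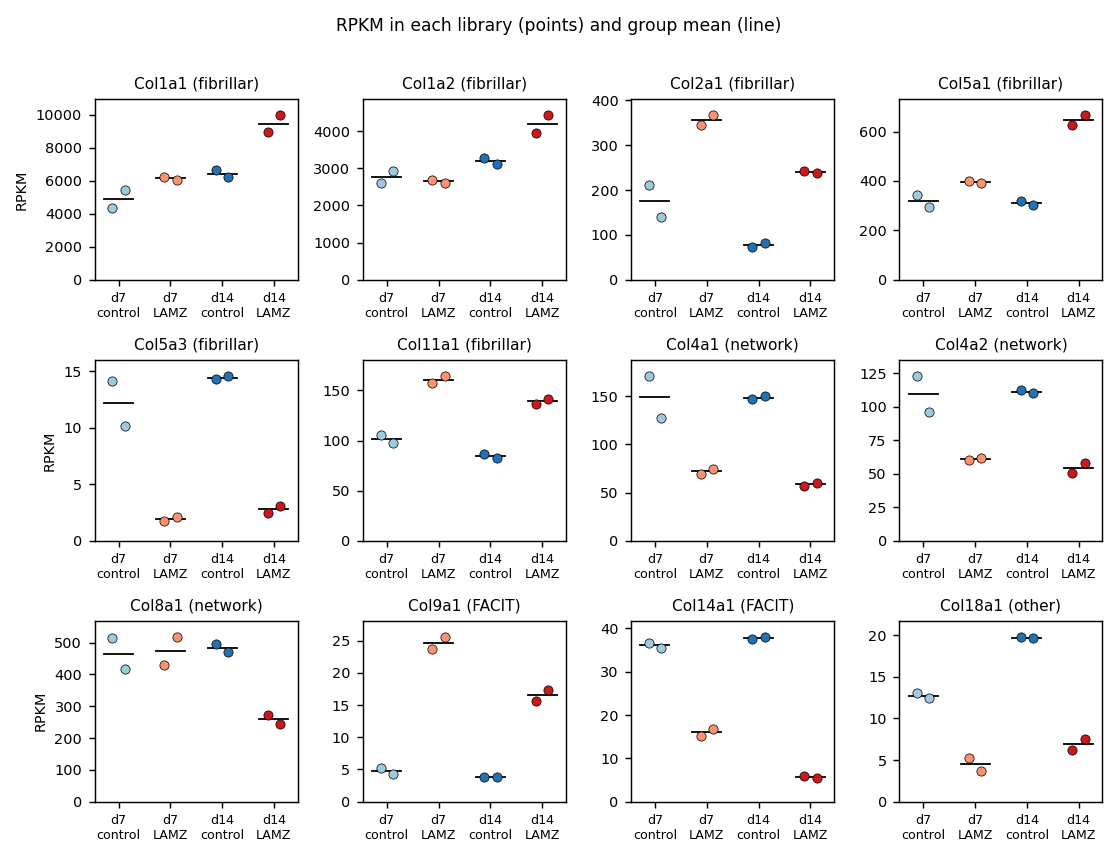
RPKM (y axes, linear, from 0) of 12 members in each library (points) with the mean of each group of 2 (lines). Col5a3, Col4a1, Col4a2, Col14a1 and Col18a1 lie lower in the 4 LAMZ libraries than in the 4 control libraries, Col9a1 and Col11a1 lie higher, and Col5a1 is highest and Col8a1 lowest in day 14 LAMZ.

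The network collagens that passed the test fell. Of 6 tested, 3 were lower at day 7 and 4 at day 14, and the others did not pass the test. Col4a1 and Col4a2, the paired chains of the basement membrane network present in most tissues, lie head to head on chromosome 8. Col4a1 (chr8:11198423-11312826) was at 171 and 128 RPKM in day 7 control and 69.3 and 74.8 with LAMZ. At day 14 Col4a1 was at 147 and 150.2 in control and 56.6 and 60.3 with LAMZ. Its mean was 2.07-fold lower at day 7 and 2.54-fold lower at day 14, with log2 fold changes of -1.03 ± 0.15 (SE, adjusted p = 0.00457) at day 7 and -1.33 ± 0.15 (SE, adjusted p = 0.000763) at day 14. Col4a2 (chr8:11312805-11449287) was at 123 and 95.7 RPKM in day 7 control and 60.0 and 61.8 with LAMZ. At day 14 Col4a2 was at 112 and 110.1 in control and 50.6 and 58.1 with LAMZ. The log2 fold changes of Col4a2 were -0.82 ± 0.14 (SE, adjusted p = 0.00966) at day 7 and -1.02 ± 0.14 (SE, adjusted p = 0.00212) at day 14. In both genes each LAMZ value lay below each control value of both days. Their annotated first exons overlap by 22 bases, so reads from these bases could not be told apart without strand, and the overlap is shown in capitals on the strand of Col4a2 (chr8:11312801-11312830) because both genes start there and moved together.
Start of Col4a1 and Col4a2: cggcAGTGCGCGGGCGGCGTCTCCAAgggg

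Col4a5, a type IV chain of specialised basement membranes (chrX:141475385-141689234), was at 12.3 and 7.22 RPKM in day 7 control and 2.2 and 2.69 with LAMZ. At day 14 Col4a5 was at 8.7 and 7.21 in control and 2.32 and 1.31 with LAMZ. It was 4.0-fold lower with LAMZ at day 7 and 4.38-fold lower at day 14, with log2 fold changes of -1.61 ± 0.26 (SE, adjusted p = 0.00653) at day 7 and -1.69 ± 0.26 (SE, adjusted p = 0.00299) at day 14. Col8a1, a short-chain collagen of vessel walls and of the cornea (chr16:57624258-57754737), was at 513 and 416 RPKM in day 7 control and 429.9 and 517 with LAMZ. At day 14 Col8a1 was at 497 and 470.4 in control and 273 and 246 with LAMZ. The day 7 groups overlapped, and at day 14 the LAMZ mean was 1.86-fold lower, with log2 fold changes of 0.03 ± 0.15 (SE, adjusted p = 0.933) at day 7 and -0.90 ± 0.15 (SE, adjusted p = 0.0051) at day 14. Its partner Col8a2 was at 196 and 127 RPKM in day 7 control and 193 and 229 with LAMZ. At day 14 Col8a2 was at 158 and 145 in control and 116 and 133 with LAMZ. Its log2 fold changes of 0.41 ± 0.21 (SE, adjusted p = 0.243) at day 7 and -0.28 ± 0.21 (SE, adjusted p = 0.36) at day 14 did not pass the test. Over all alternatives the adjusted p reached 0.0774 for Col4a2 and 0.0607 for Col4a5 at day 7. Col8a1 was 1 of the 3 members with TGTGGT in the promoter window, and the 250 bases before its start (chr16:57754738-57754987, minus strand) are given with these letters in capitals, from position -230.
Col8a1: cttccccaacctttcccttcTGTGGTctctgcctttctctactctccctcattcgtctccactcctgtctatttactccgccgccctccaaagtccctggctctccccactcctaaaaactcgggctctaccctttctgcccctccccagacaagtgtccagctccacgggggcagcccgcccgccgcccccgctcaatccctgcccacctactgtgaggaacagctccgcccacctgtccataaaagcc

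Col10a1, made by hypertrophic chondrocytes (chr10:34389981-34397085), was low, at 1.1 and 0.738 RPKM in day 7 control and 0.375 and 0.429 with LAMZ. At day 14 Col10a1 was at 0.952 and 1.06 in control and 1.21 and 4.32 with LAMZ. These values rest on 5 to 66 reads, the day 14 LAMZ libraries stood apart from each other (22 and 66 reads), and the log2 fold changes of -0.45 ± 0.37 (SE, adjusted p = 0.478) at day 7 and 0.77 ± 0.37 (SE, adjusted p = 0.168) at day 14 did not pass the test. The macrophage markers were lower in the same LAMZ libraries as the type IV chains, and their part was not tested.

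Among the FACIT members the chains of type IX rose and Col14a1 fell. Of 7 tested, 2 rose and 1 fell at day 7, and 4 rose and 1 fell at day 14. Col9a1, a chain of type IX, which decorates type II fibrils (chr1:24177610-24252684), was at 5.18 and 4.27 RPKM in day 7 control and 23.6 and 25.5 with LAMZ. At day 14 Col9a1 was at 3.86 and 3.8 in control and 15.7 and 17.3 with LAMZ. The LAMZ mean was 5.2-fold higher at day 7 and 4.32-fold higher at day 14, with log2 fold changes of 2.16 ± 0.13 (SE, adjusted p = 8.84e-05) at day 7 and 1.86 ± 0.13 (SE, adjusted p = 6.92e-05) at day 14. It had the largest rise of the tested members at each day. The 250 bases before the start of its longer transcript (chr1:24177360-24177609, plus strand) held none of the 3 sets of letters.
Col9a1: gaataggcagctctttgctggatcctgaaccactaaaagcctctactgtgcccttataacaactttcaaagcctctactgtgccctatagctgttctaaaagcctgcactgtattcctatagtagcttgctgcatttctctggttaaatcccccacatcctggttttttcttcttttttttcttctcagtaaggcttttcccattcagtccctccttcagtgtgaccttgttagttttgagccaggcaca

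Col9a2 (chr4:121039385-121055322) was at 6.86 and 3.54 RPKM in day 7 control and 9.55 and 9.3 with LAMZ. At day 14 Col9a2 was at 5.66 and 3.93 in control and 10.4 and 11.7 with LAMZ. Col9a3 (chr2:180597790-180622189) was at 19.7 and 10.8 RPKM in day 7 control and 28.7 and 27.8 with LAMZ. At day 14 Col9a3 was at 6.23 and 3.73 in control and 15.0 and 15.7 with LAMZ. In both genes the LAMZ values of each day lay above the control values of that day. The log2 fold change of Col9a2 was 0.80 ± 0.25 (SE, adjusted p = 0.0774) at day 7 and 1.07 ± 0.25 (SE, adjusted p = 0.0188) at day 14, and that of Col9a3 was 0.91 ± 0.28 (SE, adjusted p = 0.0705) at day 7 and 1.49 ± 0.28 (SE, adjusted p = 0.00717) at day 14, so that both passed at day 14. Col9a3 shares 234 exon bases with Tcfl5 on the other strand, and the strand of the counting is not given in the sources used here. Col22a1, known from tissue junctions such as that of muscle and tendon (chr15:71795795-72034227), was at 1.99 and 4.61 RPKM in day 7 control and 6.04 and 4.42 with LAMZ. At day 14 Col22a1 was at 7.63 and 6.9 in control and 16.7 and 20.5 with LAMZ. The groups overlapped at day 7, and the log2 fold changes were 0.59 ± 0.28 (SE, adjusted p = 0.212) at day 7 and 1.24 ± 0.28 (SE, adjusted p = 0.0157) at day 14.

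Col12a1 and Col14a1, both of which bind the surface of type I fibrils, went apart. Col12a1 (chr9:79598991-79718831) was at 261 and 297 RPKM in day 7 control and 402 and 411 with LAMZ. At day 14 Col12a1 was at 237 and 268 in control and 257 and 247 with LAMZ. Its log2 fold changes were 0.54 ± 0.12 (SE, adjusted p = 0.028) at day 7 and -0.0037 ± 0.12 (SE, adjusted p = 0.988) at day 14. It rose at day 7, and the day 14 groups overlapped. Col14a1 (chr15:55307750-55520803) was at 36.7 and 35.4 RPKM in day 7 control and 15.2 and 16.8 with LAMZ. At day 14 Col14a1 was at 37.6 and 37.9 in control and 5.87 and 5.46 with LAMZ. All LAMZ values lay below all control values, the mean was 2.26-fold lower at day 7 and 6.67-fold lower at day 14, and the log2 fold changes were -1.13 ± 0.11 (SE, adjusted p = 0.000729) at day 7 and -2.54 ± 0.11 (SE, adjusted p = 8.55e-06) at day 14. Col16a1 was lower in each LAMZ library than in the controls of the same day without passing the test. For Col16a1 the log2 fold changes were -0.39 ± 0.17 (SE, adjusted p = 0.177) at day 7 and -0.40 ± 0.17 (SE, adjusted p = 0.127) at day 14. Over all alternatives the adjusted p reached 0.246 for Col12a1 at day 7 and 0.117 for Col9a2, 0.0502 for Col9a3 and 0.0975 for Col22a1 at day 14.

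Type VI collagen forms beaded filaments around cells from chains of Col6a1, Col6a2 and Col6a3, and of these 3 tested members only Col6a3 was called. Col6a3 (chr1:90765923-90843971) was at 137 and 162 RPKM in day 7 control and 213 and 213 with LAMZ. At day 14 Col6a3 was at 136 and 156 in control and 205 and 237 with LAMZ. Its log2 fold changes were 0.51 ± 0.14 (SE, adjusted p = 0.0471) at day 7 and 0.60 ± 0.14 (SE, adjusted p = 0.0178) at day 14. Both calls were lost with libraries rescaled to the same sum, and over all alternatives the adjusted p reached 0.344 at day 7 and 0.329 at day 14. Col6a1 (chr10:76708792-76726168), the most abundant of them by RPKM, was at 427 and 377 RPKM in day 7 control and 405 and 389 with LAMZ. At day 14 Col6a1 was at 345 and 365 in control and 279 and 284 with LAMZ. The log2 fold changes were -0.02 ± 0.12 (SE, adjusted p = 0.953) at day 7 and -0.33 ± 0.12 (SE, adjusted p = 0.0816) at day 14. Col6a2 lay between 61.1 and 81.4 RPKM, with log2 fold changes of 0.06 ± 0.13 (SE, adjusted p = 0.823) at day 7 and -0.25 ± 0.13 (SE, adjusted p = 0.194) at day 14.

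Col13a1, a transmembrane collagen of cell adhesion sites (chr10:61838236-61979108), was at 1.61 and 2.76 RPKM in day 7 control and 4.94 and 4.46 with LAMZ. At day 14 Col13a1 was at 3.44 and 3.27 in control and 8.38 and 7.56 with LAMZ. It was higher in the LAMZ libraries of each day, with log2 fold changes of 0.86 ± 0.18 (SE, adjusted p = 0.0181) at day 7 and 1.04 ± 0.18 (SE, adjusted p = 0.00483) at day 14, and over all alternatives the adjusted p reached 0.119 at day 7.

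All 5 members outside these types were lower with LAMZ at day 7, and 4 of the 5 at day 14. Col18a1, a collagen of basement membrane zones whose end fragment is endostatin (chr10:77052178-77166548), was at 13.0 and 12.5 RPKM in day 7 control and 5.28 and 3.72 with LAMZ. At day 14 Col18a1 was at 19.7 and 19.6 in control and 6.23 and 7.53 with LAMZ. Its mean was 2.83-fold lower at day 7 and 2.86-fold lower at day 14, with log2 fold changes of -1.33 ± 0.16 (SE, adjusted p = 0.00186) at day 7 and -1.40 ± 0.16 (SE, adjusted p = 0.00079) at day 14. At its second RefSeq start, inside the gene, the RUNX letters read on the opposite strand (ACCACA, capitals) begin at position -12, and the 30 bases before that start (chr10:77113706-77113735, minus strand) are given for this reason.
Col18a1, second start: gcaggccccacctccaggACCACAggagcc

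Col15a1, the close relative of Col18a1 (chr4:47208161-47313167), was at 4.72 and 4.55 RPKM in day 7 control and 2.33 and 2.48 with LAMZ. At day 14 Col15a1 was at 9.42 and 9.34 in control and 10.4 and 10.7 with LAMZ. It fell at day 7 and the day 14 values were just above control, with log2 fold changes of -0.73 ± 0.11 (SE, adjusted p = 0.00468) at day 7 and 0.16 ± 0.11 (SE, adjusted p = 0.323) at day 14. Col7a1, the chain of the anchoring fibrils of skin (chr9:108953586-108984875), was at 4.43 and 3.73 RPKM in day 7 control and 1.62 and 1.4 with LAMZ. At day 14 Col7a1 was at 1.86 and 1.94 in control and 0.967 and 0.558 with LAMZ. The log2 fold changes were -1.02 ± 0.17 (SE, adjusted p = 0.00761) at day 7 and -0.73 ± 0.17 (SE, adjusted p = 0.0174) at day 14. The LAMZ values lay below the control values at each day in Col7a1 and in Col26a1. Col26a1 (chr5:136741759-136883209) was at 16.1 and 15.2 RPKM in day 7 control and 8.67 and 9.82 with LAMZ. At day 14 Col26a1 was at 14.6 and 12.2 in control and 9.83 and 9.22 with LAMZ. Its log2 fold changes were -0.70 ± 0.13 (SE, adjusted p = 0.0117) at day 7 and -0.45 ± 0.13 (SE, adjusted p = 0.0392) at day 14. Over all alternatives the adjusted p at day 14 reached 0.104 for Col7a1 and 0.208 for Col26a1, and at day 7 0.097 for Col26a1 and 0.0561 for Col7a1.

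Col28a1, a beaded-filament-like collagen known from peripheral nerve (chr6:7997808-8192617), had the fewest reads of the tested members with LAMZ. It was at 3.79 and 2.71 RPKM in day 7 control and 0.191 and 0.117 with LAMZ. At day 14 Col28a1 was at 2.39 and 1.26 in control and 0 and 0.125 with LAMZ. These values rested on 70 and 46 reads in day 7 control against 4 and 3, and on 63 and 28 reads at day 14 against 0 and 3. Scaled to depth, the control libraries held 21.7 times the reads of the LAMZ libraries at day 7 (95% interval of counting error 10.2 to 55.2) and 32.9 times at day 14 (10.9 to 162). The log2 fold changes were -1.87 ± 0.25 (SE, adjusted p = 0.00294) at day 7 and -1.39 ± 0.25 (SE, adjusted p = 0.00607) at day 14, which understate the difference because 1 is added to these low RPKM values. The macrophage markers were lower in the same libraries, and their part was not tested.

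The 11 members that were not tested were Col4a3, Col4a4, Col4a6, Col19a1, Col20a1, Col6a4, Col6a5, Col6a6, Col17a1, Col23a1 and Col25a1, each with at most 31 reads in any library. Of these Col6a6, a rarer type VI chain, had 20 and 15 reads in day 7 control, 3 and 2 with LAMZ, 25 and 15 in day 14 control and 3 and 1 with LAMZ. Col4a6 had 14 and 16 reads in day 7 control against 6 and 10 with LAMZ, and 22 and 12 in day 14 control against 4 and 8. Depth-scaled, the control libraries held 9.17 times the Col6a6 reads of the LAMZ libraries at day 7 (95% interval 3.58 to 29.98) and 10.8 times at day 14 (3.92 to 41.7). These intervals cover counting error only. Col20a1, a FACIT chain, went the other way at day 14 in the pooled reads, with 8 and 12 in control against 14 and 29 with LAMZ. The depth-scaled ratio of control to LAMZ was 0.504 (95% interval 0.281 to 0.875, counting error only). Scaled to depth, the day 14 groups overlapped, since LAMZ replicate 1 had 14 of 5832101 reads and control replicate 2 had 12 of 4520829. At day 7 Col20a1 had 6 and 8 reads against 6 and 10, and the interval of the ratio included 1. Col23a1 had 10 or 11 reads in the day 7 LAMZ libraries and 21 and 17 in their controls. At day 14 it had 15 and 12 with LAMZ and 25 and 24 in control. The depth-scaled ratio of control to LAMZ was 2.47 (1.04 to 6.3) at day 7 and 2.27 (1.06 to 5.15) at day 14 for Col25a1. For Col4a6 it was 2.46 (1.3 to 4.82) and 3.07 (1.55 to 6.51), again with 95% intervals of counting error only. Col19a1 had 7 to 31 reads and Col4a4 2 to 13 reads per library. Col4a3, Col6a4, Col6a5 and Col17a1 had at most 8 reads in any library, at which depth no difference was detectable.

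The ratio of chains that assemble together was compared as a description, with no test. The ratio of Col1a1 to Col1a2 RPKM was 1.68 and 1.85 in day 7 control and 2.32 and 2.33 with LAMZ. At day 14 Col1a1/Col1a2 was 2.04 and 1.99 in control and 2.27 and 2.25 with LAMZ. It lay higher with LAMZ at both days, and the libraries of a group were farthest apart in day 7 control. The gene length behind the deposited values was 12137 bases for Col1a2 and 6563 for Col1a1, against 5348 and 5930 in their longest principal transcripts, and with the latter lengths the mean ratio was 0.861 at day 7 and 0.983 at day 14 in control and 1.13 and 1.1 with LAMZ, a comparison added after the values were seen. The level of the ratio thus depended on the length used. The change of length multiplies the ratio of every library by the same factor, 0.488, so the order of the groups could not change. The level of the ratios of the other pairs depends on the length as well. Their factors ran from 0.507 for Col6a1/Col6a2 to 1.59 for Col3a1/Col1a1.

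Col3a1 to Col1a1 was 0.144 and 0.0889 in day 7 control and 0.0919 and 0.104 with LAMZ. At day 14 Col3a1/Col1a1 was 0.0876 and 0.0963 in control and 0.0437 and 0.0402 with LAMZ, the lowest values of this ratio. Col5a1 to Col5a2 was 1.26 and 1.23 in day 7 control and 1.13 and 1.1 with LAMZ. At day 14 Col5a1/Col5a2 was 1.36 and 1.2 in control and 1.92 and 1.97 with LAMZ. It stood apart with LAMZ at day 14, where Col5a1 had risen more than Col5a2. With principal transcript lengths the mean Col5a1/Col5a2 was 0.868 at day 7 and 0.893 at day 14 in control. With LAMZ it was then 0.778 and 1.36. For Col4a1 to Col4a2 the ratio was 1.39 and 1.34 in day 7 control and 1.16 and 1.21 with LAMZ. At day 14 Col4a1/Col4a2 was 1.31 and 1.36 in control and 1.12 and 1.04 with LAMZ, below control in each LAMZ library of both days. Col6a3 to Col6a1 was 0.321 and 0.428 in day 7 control and 0.527 and 0.546 with LAMZ. At day 14 Col6a3/Col6a1 was 0.395 and 0.426 in control and 0.735 and 0.833 with LAMZ. Col9a1 to Col9a2 was 0.756 and 1.21 in day 7 control and 2.48 and 2.74 with LAMZ. At day 14 Col9a1/Col9a2 was 0.682 and 0.966 in control and 1.51 and 1.48 with LAMZ. Both ratios were above control at each day. Col9a3 to Col9a2 fell with time in either culture, from 2.87 and 3.04 to 1.1 and 0.949 in control and from 3.0 and 2.99 to 1.44 and 1.34 with LAMZ. Col8a1 to Col8a2 was below control with LAMZ at both days, at group means of 2.24 against 2.94 and 2.1 against 3.19. The libraries of LAMZ and control overlapped at both days for Col11a1 to Col11a2, and for Col6a1 to Col6a2 at day 14.

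**Figure D4:**
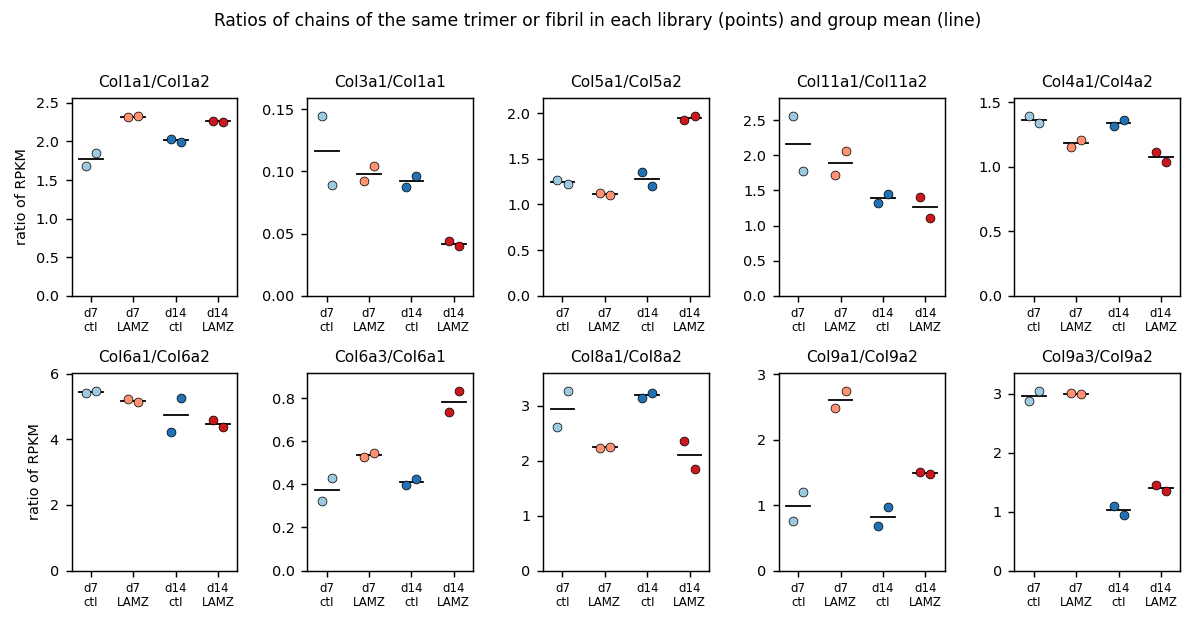
Ratio of RPKM (y axes, linear, from 0) of 10 pairs of chains in each library (points) with the mean of each group (lines). Col5a1/Col5a2 stands apart in day 14 LAMZ (means 1.95 against 1.28 in day 14 control), and Col3a1/Col1a1 is lowest there (0.0419 against 0.0919).

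Some collagen genes neighbour each other within 100 kb, and neighbours did not always move together. Col4a1 and Col4a2 overlap at their starts and both fell at both days. Col3a1 and Col5a2 lie on chromosome 1 with their ends facing each other, 24.6 kb apart, and Col5a2 rose at day 14 while Col3a1 fell. Col4a5, which fell, lies 1.31 kb from Col4a6, which was too low to test, in opposite directions on chromosome X. Col6a2 and Col6a1, 85.2 kb apart on chromosome 10, passed the test at neither day.

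Whether an effect of LAMZ differed between the days was tested by the interaction term, for which 0.623% of all genes were called. Of the members 1 was called, Col14a1, whose log2 difference of the effects (day 14 minus day 7) was -1.41 ± 0.15 (SE, adjusted p = 0.0243). The call was lost without each of 7 of the 8 libraries taken singly (adjusted p between 0.0522 and 0.122), all but day 7 control replicate 1, and without a filter on low values (adjusted p = 0.0629). Next in adjusted p stood Col15a1 with 0.89 ± 0.15 (SE, adjusted p = 0.0528), Col8a1 with -0.93 ± 0.22 (SE, adjusted p = 0.107) and Col5a1 with 0.74 ± 0.18 (SE, adjusted p = 0.109), none of which passed the test.

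Over culture time in control, 1 member rose from day 7 to day 14, where 2.46% of all genes did, and 3 fell, where 2.40% did. The member that rose was Col15a1, with a log2 fold change of 0.88 ± 0.11 (SE, adjusted p = 0.00798). Col2a1 fell with -1.13 ± 0.19 (SE, adjusted p = 0.0196), Col9a3 with -1.42 ± 0.28 (SE, adjusted p = 0.0325) and Col7a1 with -0.81 ± 0.17 (SE, adjusted p = 0.0401). With libraries rescaled to the same sum, 3 members rose and 2 fell, where 7.60% and 1.26% of all genes did. All of these calls were lost without day 14 control replicate 1, and the falls without day 14 control replicate 2. Calls over all genes became fewer in both of these fits as well. Some of the falls were also lost without other single libraries. Further members were called higher without day 7 control replicate 2.

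In the LAMZ culture, 6 members rose with time (5.10% of all genes) and 7 fell (9.26%). Those that rose were Col1a1 with 0.62 ± 0.16 (SE, adjusted p = 0.044), Col1a2 with 0.66 ± 0.14 (SE, adjusted p = 0.0205), Col5a1 with 0.71 ± 0.12 (SE, adjusted p = 0.00995), Col22a1 with 1.66 ± 0.28 (SE, adjusted p = 0.00844), Col13a1 with 0.65 ± 0.18 (SE, adjusted p = 0.0456) and Col15a1 with 1.77 ± 0.11 (SE, adjusted p = 0.000381). Both chains of type I collagen were in this group, but the call of Col1a1 was lost in 12 of 21 alternatives (adjusted p up to 0.685) and that of Col1a2 in 6 of 21 (up to 0.509). Those that fell were Col14a1 with -1.35 ± 0.11 (SE, adjusted p = 0.000602), Col8a1 with -0.86 ± 0.15 (SE, adjusted p = 0.0105), Col8a2 with -0.75 ± 0.21 (SE, adjusted p = 0.0475), Col12a1 with -0.69 ± 0.12 (SE, adjusted p = 0.0111), Col3a1 with -0.60 ± 0.15 (SE, adjusted p = 0.0328), Col9a1 with -0.55 ± 0.13 (SE, adjusted p = 0.0254) and Col6a1 with -0.49 ± 0.12 (SE, adjusted p = 0.0302). With libraries rescaled to the same sum the counts were 7 and 2 (7.51% and 4.35% of all genes), and centred on the median gene they were 8 and 6 (7.38% and 7.24%). Most of the calls were lost when any 1 of the 4 LAMZ libraries was left out, and calls over all genes became fewer as well. That members were called in one culture and not in the other does not show that the cultures differed, which is the interaction tested above.

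**Figure D5:**
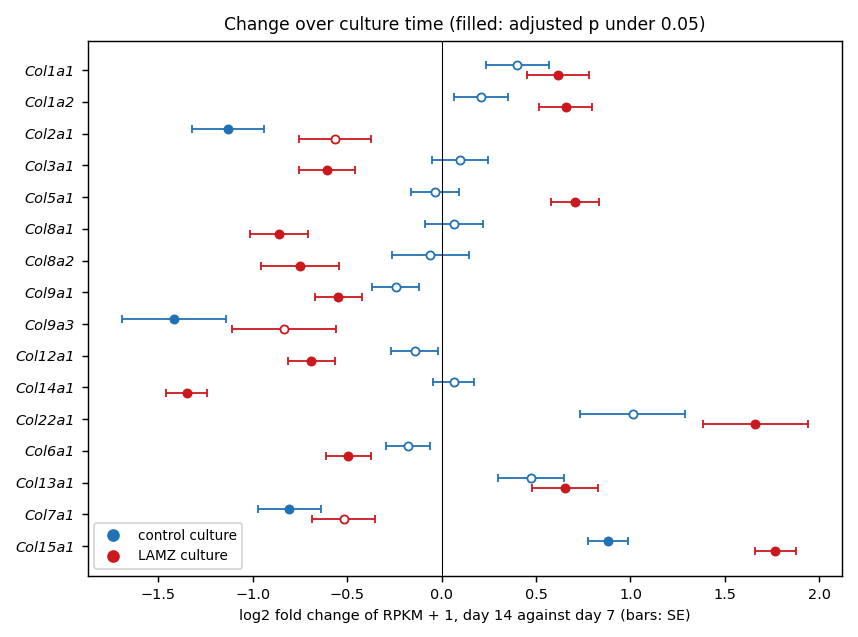
Log2 fold change of RPKM + 1 from day 7 to day 14 (x axis, bars are SE) in control (blue) and LAMZ (red) cultures for the 16 members called in either. Filled points passed an adjusted p of 0.05. Col15a1 rose in both cultures (0.88 and 1.77) and Col14a1 fell with LAMZ (-1.35).

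Genes whose products modify, fold, process, crosslink, bind or degrade collagen were listed with the members. Of 64 listed, 58 were tested, and 17 rose and 5 fell at day 7 and 20 rose and 16 fell at day 14, with median log2 fold changes of 0.21 and 0.13. The rises were 29.3% and 34.5% of the tested genes, against 4.35% and 6.96% of all genes. The falls were 8.62% at day 7, near the 8.49% of all genes, and 27.6% at day 14, against 16.0%. The rises were most frequent among the hydroxylases and glycosyltransferases that modify the chains in the endoplasmic reticulum, of which 8 of 14 rose at day 7, and 8 rose and 2 fell at day 14. P4ha1, the catalytic subunit of prolyl 4-hydroxylase, was at 69.5 and 86.6 RPKM in day 7 control and 176 and 163 with LAMZ. At day 14 P4ha1 was at 63.7 and 78.7 in control and 168 and 150.1 with LAMZ. The log2 fold changes of P4ha1 were 1.12 ± 0.16 (SE, adjusted p = 0.00385) at day 7 and 1.15 ± 0.16 (SE, adjusted p = 0.00183) at day 14. P4ha2, a second such subunit, was at 27.0 and 32.1 RPKM in day 7 control and 69.6 and 65.0 with LAMZ. At day 14 P4ha2 was at 22.7 and 24.2 in control and 78.6 and 76.2 with LAMZ. It rose at both days, with 1.17 ± 0.12 (SE, adjusted p = 0.00102) at day 7 and 1.68 ± 0.12 (SE, adjusted p = 8.94e-05) at day 14. The prolyl 3-hydroxylase P3h2 was at 1.43 and 1.78 RPKM in day 7 control and 6.87 and 6.19 with LAMZ. At day 14 P3h2 was at 1.1 and 1.49 in control and 2.95 and 2.97 with LAMZ, and it rose with 1.53 ± 0.14 (SE, adjusted p = 0.000665) at day 7 and 0.79 ± 0.14 (SE, adjusted p = 0.00668) at day 14. Plod2, a lysyl hydroxylase, was at 19.4 and 15.5 RPKM in day 7 control and 24.7 and 25.7 with LAMZ. At day 14 Plod2 was at 22.4 and 26.5 in control and 14.6 and 14.0 with LAMZ. It rose at day 7 and fell at day 14, with log2 fold changes of 0.52 ± 0.14 (SE, adjusted p = 0.0493) at day 7 and -0.73 ± 0.14 (SE, adjusted p = 0.0084) at day 14. The difference between the days was -1.25 ± 0.20 (SE, adjusted p = 0.0452). The day 7 call and the difference were just under the threshold, and alternatives are not given here for the genes of this list.

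Of 10 chaperone and export genes 2 rose at day 7, and 4 rose and 1 fell at day 14. For this list and those in the rest of this section, the shares of all tested genes were 4.35% higher and 8.49% lower at day 7. At day 14 they were 6.96% and 16.0%. Serpinh1, the collagen chaperone HSP47, was at 1005 and 1019 RPKM in day 7 control and 1153 and 1149.8 with LAMZ. At day 14 Serpinh1 was at 825 and 803 in control and 1382 and 1418 with LAMZ. The log2 fold changes of Serpinh1 were 0.19 ± 0.12 (SE, adjusted p = 0.343) at day 7 and 0.78 ± 0.12 (SE, adjusted p = 0.00266) at day 14. Of 7 tested propeptide proteases and enhancers 1 rose and 2 fell at day 7 and 2 rose and 3 fell at day 14, the largest fall at each day being that of the tolloid-like protease gene Tll1. It was at 8.89 and 7.63 RPKM in day 7 control and 1.78 and 2.15 with LAMZ. At day 14 Tll1 was at 4.82 and 5.82 in control and 0.95 and 0.581 with LAMZ, with changes of -1.64 ± 0.16 (SE, adjusted p = 0.000805) at day 7 and -1.84 ± 0.16 (SE, adjusted p = 0.000231) at day 14. Of the 5 crosslinking oxidases 2 rose and 1 fell at each day. Loxl4 was at 11.1 and 19.4 RPKM in day 7 control and 48.9 and 37.8 with LAMZ. At day 14 Loxl4 was at 30.8 and 35.8 in control and 120.0 and 127 with LAMZ. It rose, with 1.48 ± 0.24 (SE, adjusted p = 0.0069) at day 7 and 1.86 ± 0.24 (SE, adjusted p = 0.0014) at day 14, and lay above control in every LAMZ library of the same day. Loxl1 was at 66.8 and 51.7 RPKM in day 7 control and 34.2 and 34.1 with LAMZ. At day 14 Loxl1 was at 54.1 and 50.9 in control and 19.9 and 21.9 with LAMZ, and it fell with -0.77 ± 0.14 (SE, adjusted p = 0.012) at day 7 and -1.29 ± 0.14 (SE, adjusted p = 0.000678) at day 14. Lox itself, at 216 to 294 RPKM, passed neither test, with -0.16 ± 0.14 (SE, adjusted p = 0.507) at day 7 and -0.06 ± 0.14 (SE, adjusted p = 0.803) at day 14.

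Of 9 tested proteoglycans of the fibril surface 3 rose at day 7 and 6 fell at day 14. Osteomodulin (Omd) was among both, at 9.08 and 8.09 RPKM in day 7 control and 27.5 and 21.2 with LAMZ. At day 14 Omd was at 17.6 and 17.1 in control and 11.4 and 12.7 with LAMZ. It rose at day 7 and fell at day 14, with 1.39 ± 0.15 (SE, adjusted p = 0.00103) at day 7 and -0.50 ± 0.15 (SE, adjusted p = 0.0439) at day 14, and the difference between the days was -1.89 ± 0.21 (SE, adjusted p = 0.0243). Osteoglycin (Ogn) was at 95.9 and 80.2 RPKM in day 7 control and 84.9 and 103 with LAMZ. At day 14 Ogn was at 116 and 114 in control and 58.7 and 45.2 with LAMZ. The day 7 groups overlapped and the day 14 values fell, with 0.09 ± 0.17 (SE, adjusted p = 0.777) at day 7 and -1.14 ± 0.17 (SE, adjusted p = 0.00248) at day 14.

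Of 8 tested receptors 1 rose and 2 fell at day 7 and 2 rose and 3 fell at day 14. The discoidin domain receptor Ddr1 was at 21.8 and 17.2 RPKM in day 7 control and 10.1 and 10.3 with LAMZ. At day 14 Ddr1 was at 17.4 and 14.5 in control and 7.04 and 6.95 with LAMZ, and it fell at both days, with -0.86 ± 0.14 (SE, adjusted p = 0.00772) at day 7 and -1.08 ± 0.14 (SE, adjusted p = 0.00166) at day 14. Of 5 tested collagenases 2 rose at day 14, Mmp13 and Mmp9. Mmp9 was at 1.8 and 1.47 RPKM in day 7 control and 1.72 and 1.9 with LAMZ. At day 14 Mmp9 was at 1.37 and 1.56 in control and 3.92 and 8.62 with LAMZ. The day 7 groups overlapped, and the changes were 0.10 ± 0.28 (SE, adjusted p = 0.866) at day 7 and 1.48 ± 0.28 (SE, adjusted p = 0.0075) at day 14. The list of modifying enzymes was the one in which rises at both days were most frequent, and no test of the list as a whole was made.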

How the data were processed

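RNA of 8 libraries (4 groups of 2, taken from the sample labels) was sequenced by the authors on an Ion Proton and analysed in CLC Genomics Workbench, whose version and gene annotation are not given in the sources used here; the submitters' processing notes name the build mm10. The authors deposited RPKM per gene symbol, scaled within each library. The header of the values of day 7 LAMZ replicate 1 names a V1 library of day 7 and not LAMZ, and its group was taken from the label. In each file 4 of 51826 rows, with repeated symbols, were dropped. Symbols were matched to GENCODE M21 (GRCm38), and 47459 matched 1 gene. Because RPKM is a whole number of reads divided by gene length and library size, mapped reads were recovered from single-exon genes, of whose values 93.9% to 95.7% per library were whole within 0.02 reads. Of 27775 genes with a length, 83.4% gave whole reads in all 8 libraries. For 10 of the 44 members the length was fitted to the values.

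limma 3.58.1 (R 4.3.3) was fitted to log2(RPKM + 1) with a mean-variance trend, all 4 groups in 1 fit with 4 residual degrees of freedom, on genes that reached an RPKM of 1 in 2 or more libraries. Fold changes are on the log2(RPKM + 1) scale, which understates changes of low genes. The procedure was run on simulated data with a fixed spread and large changes in genes of higher expression. That run does not show how the test performs for smaller changes, low values or the spread of these libraries. The authors state no test for these values. Replicates within groups correlated at 0.961 to 0.980 across genes and differed by more than sampling noise (chi-square per gene 3.67 to 5.90).

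Members are defined by name. The structural types, the lists of genes acting on collagen and of cell type markers, and the tests were chosen with earlier results of these data known. Full values are given for members called with LAMZ, the 6 most abundant members, and Col1a1, Col1a2, Col2a1 and Col10a1; of the pathway list, the 3 largest rises and falls called at each day and Serpinh1, P4ha1, Plod2 and Lox. Alternatives were other scalings, pseudocounts 0.1 and 5, no filter or a mean RPKM of at least 5, correction for length and GC content (97.22% of tested genes), a replicate block, the 4 libraries of a comparison alone, no trend, and leaving out each library. limma voom on recovered reads, shares of mapped reads, principal transcript lengths and the letters TATAAA and CCAAT were added after the data were seen. The result of 1 marker list is not reported here. Library totals give counting errors only, since reads are not molecules.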

Additional observations from a re-analysis of the deposited data

Results flagged for a closer look

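Col14a1, a FACIT collagen of type I fibril surfaces, was the member whose LAMZ effect differed between the days by a test of the difference itself. Its log2 fold change was -1.13 at day 7 and -2.54 at day 14, a difference of -1.41 ± 0.15 (SE, adjusted p = 0.0243) by limma. The control libraries stood between 35.4 and 37.9 RPKM at both days, so the difference lay in the LAMZ libraries, which were at 15.2 and 16.8 RPKM at day 7 and 5.87 and 5.46 at day 14. The adjusted p ranged from 0.000489 to 0.122 over the alternatives. With groups of 2 libraries, no single library could be tested for standing apart from its group.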

How the results depend on the processing

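Over 65 fold changes of named members and their alternatives, 1135 values kept direction and call, 258 kept direction and lost the call, and 5 gained a call. Those that reversed were Col1a1 under quantile normalization (-0.22 at day 14 and -0.14 at day 7) and Col1a2 at day 7, which turned to 0.052 with libraries centred on the median gene and to 0.028 without day 7 control replicate 2 (-0.15 to 0.028 over the single libraries left out); the cause was not tested.

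Counts of members called are given here with those of all genes tested in brackets. Rises at day 7 numbered 5 with libraries rescaled to the same sum of all genes (308 of 12698). They numbered 5 with the same sum of genes other than collagens (306 of 12708) and 5 under quantile normalization (679 of 12514). Without a filter they numbered 4 (346 of 29944), and on the 4 libraries alone 2 (219 of 12514). Differences between the days numbered 2 with median centring (69 higher and 41 lower of 12514). At a mean RPKM of at least 5 they numbered 2 (55 and 89 of 5604). They numbered 3 under quantile normalization (61 and 52 of 12514) and 5 by voom (104 and 232 of 12166). By limma without a filter they numbered 0 (0 and 0 of 29944), with 7 members at an unadjusted p under 0.05. Rises with time in control numbered 3 under both rescalings (965 of 12698 and 1071 of 12708). With the sum of all genes, these are 9.09% of the members, near the 7.60% of all genes. At a mean RPKM of at least 5 they numbered 3 (263 of 5604), and with pseudocount 5 they numbered 2 (377 of 12514). They numbered 2 with the length and GC correction (327 of 12166) and 4 by voom (504 of 12166). On the 4 libraries alone they numbered 0 (0 of 12514), with 3 unadjusted. Falls with time in control numbered 0 without a filter (93 of 29944), with 6 unadjusted. On the 4 libraries alone these falls numbered 0 (0 of 12514), with 3 unadjusted. With LAMZ, rises with time numbered 3 without a filter (429 of 29944). Falls with time in LAMZ numbered 2 under both rescalings (552 of 12698 and 523 of 12708). They numbered 3 without a filter (662 of 29944) and 12 by voom (1868 of 12166). Without a filter 29944 genes were tested, and fits on 4 libraries have fewer degrees of freedom.

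Leaving out 1 library at a time gave 1 to 9 rises and 7 to 11 falls at day 7, 6 to 12 rises and 8 to 12 falls at day 14, 0 to 1 differences between days, 0 to 3 rises and 0 to 3 falls with time in control, and 1 to 6 rises and 1 to 10 falls with time in LAMZ. Calls over all tested genes also varied widely between these fits, in every comparison. These ranges therefore do not show an instability particular to the collagens. The lone library left in an arm is assumed to vary like the others.

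The replicate numbers were not shown to pair libraries: deviations of same-numbered libraries from their group means correlated at -0.02 at day 7 and 0.02 at day 14. A replicate block within day gave 5 rises at day 7, where 344 of 12514 genes rose. It gave 0 differences between days, where 4 of all 12514 genes were called higher and 3 lower. For these differences 7 members passed unadjusted, and Col14a1 was at an adjusted p of 0.111 by limma. A replicate block across all groups gave 4 falls with time in LAMZ, where 986 of 12514 genes fell. The other counts stayed within 1.5 times. The share of collagens in summed RPKM was 4.46% in day 14 control over tested genes and 4.54% without mitochondrial DNA genes, against 4.42%; by mapped reads it was 9.35% at day 7 and 10.8% at day 14 without LAMZ, and 10.6% and 14.1% with it.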

Other observations

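Markers of other cell types, collagens excluded, were summed in each library beside the members. Of all tested genes, 4.35% were called higher and 8.49% lower at day 7, and 6.96% and 16.0% at day 14. Smooth muscle and pericyte markers summed to 708 to 979 RPKM in the 4 control libraries and 1112 to 1681 RPKM in the 4 LAMZ libraries, with 2 of 4 tested called higher at day 7 and 4 of 4 at day 14. Tendon markers summed to 143 to 205 RPKM in the 4 control libraries and 55.1 to 122 RPKM in the 4 LAMZ libraries, with 2 of 4 tested, Tnmd and Thbs4, called lower at day 14. Osteocyte markers summed to 70.6 to 90.2 RPKM in the 4 control libraries and 129 to 225 RPKM in the 4 LAMZ libraries, with Dmp1 called higher and Pdpn lower at both days and Mepe higher at day 14. Chondrocyte markers summed to 169 to 209 RPKM in the 4 control libraries and 279 to 432 RPKM in the 4 LAMZ libraries, and osteoblast markers had 8 of 10 called higher at day 7 and 6 at day 14. Skeletal muscle markers summed to 1.92 to 5.82 RPKM in the 4 control libraries and 3.57 to 29.8 RPKM in the 4 LAMZ libraries, with Des and Acta1 called higher at day 14. The other 4 markers of this list, Myog, Myod1, Ckm and Myh3, were under 1 RPKM in all libraries. At day 7 the LAMZ sums, 3.57 and 5.52 RPKM, lay within the range of the control libraries.

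Adipocyte markers summed to 11.6 and 4.05 RPKM in day 7 control and 15.7 and 76.9 RPKM in day 14 control. In the 4 LAMZ libraries they summed to 2.13 to 4.36 RPKM. Adipoq and Fabp4 were called lower at day 14. The 2 day 14 control libraries stood apart, at 2.43 and 11.7 RPKM for Adipoq and 6.44 and 41.2 for Fabp4. Osteoclast markers summed to 3.31 to 6.29 RPKM in the 4 control libraries and 3.51 to 4.64 RPKM in the 4 LAMZ libraries, endothelial markers to 1.59 to 2.89 RPKM in the 4 control libraries and 0.812 to 0.931 RPKM in the 4 LAMZ libraries, with the receptor gene Tek called lower at both days, and epithelial markers to 0.126 to 0.889 RPKM in the 4 control libraries and 0.605 to 1.82 RPKM in the 4 LAMZ libraries. Of these last 3 lists, 1 of 5 osteoclast, 1 of 8 endothelial and 0 of 4 epithelial markers were tested. Tek was the 1 endothelial marker tested, and 6 of the 8 were under 1 RPKM in all libraries. Tek was also the largest part of the endothelial sum in each control library. The lower endothelial sums with LAMZ therefore do not show a fall of the list. None of the marker lists was tested as a whole, and their part in the collagen differences was not tested.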
